A study of Mus musculus with 3 samples.

Results

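The circadian clock genes described here are 10 genes chosen by symbol (Nr1d1, Nr1d2, Dbp, Tef, Hlf, Per1, Per2, Per3, Arntl and Clock) out of the 23183 genes with a value in each library. They were chosen for their place in the clock and not for their level, and all 10 had at least 1 FPKM (fragments or reads mapped to a transcript, divided by its kilobases and by the mapped total in units of 1000000) in all 3 libraries. Homogenised lungs of female BALB/c mice were sequenced, 1 library in each of 3 groups. One label puts the mice at 10 weeks of age and another at 5 to 6 weeks. The OVA+PM10 library came from mice that were given particulate matter (PM10, a certified dust reference material) into the nose 4 times over 2 weeks. They were also sensitised to ovalbumin (OVA, an egg-white protein) with an aluminium adjuvant, by injections of 20 µg into the peritoneum up to day 14, and challenged with OVA into the nose on days 21, 22 and 23. The PM10 library came from mice given the particles alone, and the control library from mice that the labels call control without naming a vehicle. Death is placed 2 days after the final challenges, with no separate time given for control mice.

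Each group had 5 mice, but whether a library holds 1 of them or a pool is not stated, nor whether the sequenced mice had received particles at 100 or at 200 µg. The sources used here give neither the time of day at which tissue was taken nor the light schedule. With 1 library per group there is no test between groups, no p-value and no measure of the spread between mice, so each quotient below compares libraries and not treatments. In a homogenate, fewer cells of a type and less RNA per cell cannot be told apart. The low values imply about 14900000 reads for OVA+PM10 lung, 12900000 for PM10 lung and 19900000 for control lung.

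The mammalian clock is a feedback loop of transcription. BMAL1 (encoded by Arntl) and CLOCK bind E-box sequences and switch on the Per and Cry genes, whose proteins then block them. BMAL1 and CLOCK also switch on the REV-ERB genes Nr1d1 and Nr1d2, whose proteins repress Arntl through ROR elements, so that in a running clock Arntl RNA peaks when Nr1d1 RNA is lowest. Dbp, Tef and Hlf encode PAR bZIP factors that carry the rhythm to genes with D-box sequences. In mouse lung the clock runs in many cell types, club cells of the airway and macrophages among them, and shapes the inflammatory response. A difference in the time of sampling would move genes of opposite phase in opposite directions, and whether the members did so is the question put to these values.

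Letters that match the E-box, D-box and ROR element are shown for the members whose promoter windows hold them, and for 1 further clock gene, Nfil3. RefSeq promoter windows (GRCm38.p6, 250 bases before to 50 after a start site) were matched for 9 of the 10 members, in 14 windows, Per2 being the one without. The stretches are 5′ to 3′ on the strand of the gene, with the motif in capitals. For Per1 (chr11:69098699-69098948, plus strand) and Tef (chr15:81802423-81802672, plus strand) these are the 250 bases before a start site, with an E-box, CACGTG, whose first base lies at -166 and -127.
Per1: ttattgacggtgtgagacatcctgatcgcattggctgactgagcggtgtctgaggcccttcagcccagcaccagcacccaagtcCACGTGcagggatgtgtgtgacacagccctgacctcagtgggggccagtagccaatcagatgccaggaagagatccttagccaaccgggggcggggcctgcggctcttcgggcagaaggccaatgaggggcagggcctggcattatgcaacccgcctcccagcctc
Tef: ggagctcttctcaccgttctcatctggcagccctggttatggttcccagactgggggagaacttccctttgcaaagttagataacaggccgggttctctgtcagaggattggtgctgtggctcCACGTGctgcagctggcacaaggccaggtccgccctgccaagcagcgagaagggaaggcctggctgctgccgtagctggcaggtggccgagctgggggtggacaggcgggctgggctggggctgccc
For Per3 (chr4:151044666-151044915, minus strand) the capitals mark the D-box TTATGTAA, which occurs at -205 and at -158.
Per3: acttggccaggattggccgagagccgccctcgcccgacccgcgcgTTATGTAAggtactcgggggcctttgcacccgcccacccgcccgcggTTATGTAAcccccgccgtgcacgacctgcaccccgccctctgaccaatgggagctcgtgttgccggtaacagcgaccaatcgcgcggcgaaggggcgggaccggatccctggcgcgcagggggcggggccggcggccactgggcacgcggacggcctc
For Arntl (chr7:113207530-113207559, plus strand) and Nfil3 (chr13:52981033-52981062, minus strand), 30 bases around the ROR element TAGGTCA are shown, which Nfil3 holds on the other strand as TGACCTA.
Arntl: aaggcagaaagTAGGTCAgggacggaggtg
Nfil3: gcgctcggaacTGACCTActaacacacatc

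Searched on both strands, CACGTG was found in windows of 2 members (Per1 and Tef), TTATGTAA in 1 (Per3) and TAGGTCA in 1 (Arntl, at base 31 after a start site). The cyclic AMP response element TGACGTCA was found in 1 (Hlf, at -9). Among all 32851 windows, 7.15% held CACGTG, 0.938% TTATGTAA, 2.61% TAGGTCA and 1.79% TGACGTCA. Such shares are per window while the counts are per gene, and Tef held CACGTG in both of its windows, at -127 and -138. These motifs do not overlap one another in the windows printed. Of the 21 other clock genes considered further on, 16 had a window, and CACGTG was found in 3 of them (Cry1, Bhlhe41 and Ciart), with 3 copies in Ciart. A match to these letters is a description of the window and not a measured binding site.

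The REV-ERB receptors, the repressors of Arntl, were lowest in the PM10 library and highest in the control library. Nr1d1 (REV-ERBα, chr11:98767932-98775333, minus strand) had 32.2 FPKM in OVA+PM10 lung, 18.5 FPKM in PM10 lung and 62.3 FPKM in control lung. The exposed libraries thus stood at 0.517 (OVA+PM10) and 0.296 (PM10) of the control level. Counting bounds of 95%, from reads rebuilt with the transcript length and so approximate, were 0.484 to 0.551 for OVA+PM10 and 0.272 to 0.322 for PM10. They cover counting error only and not differences between mice. Nr1d2 (REV-ERBβ) had 18.3 FPKM in OVA+PM10 lung, 17.7 FPKM in PM10 lung and 32.9 FPKM in control lung. Here both exposed libraries lay at about the same level, with a quotient of OVA+PM10 over PM10 of 1.03 (0.951 to 1.12), below control at 0.555 (OVA+PM10) and 0.538 (PM10).

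The value of Nr1d1 carries an uncertainty of annotation. On the opposite strand, Thra, which encodes the thyroid hormone receptor α, covers 263 of its 3077 exon bases, or 8.55%. The library kit preserves strand, but the sources used here do not say whether the counting used it, so that reads of the pair in this overlap cannot be assigned. Thra had 11.8 FPKM in OVA+PM10 lung, 6.83 FPKM in PM10 lung and 30.7 FPKM in control lung, the same order as Nr1d1. The part of shared reads in either value was not tested.

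Among the PAR bZIP factors, the output arm of the clock, Dbp had the largest quotient between the exposed libraries. Dbp (chr7:45705088-45710203, plus strand) had 38.8 FPKM in OVA+PM10 lung, 15.3 FPKM in PM10 lung and 55.1 FPKM in control lung. The PM10 library was the low one, at 0.279 of control (0.249 to 0.312), while the OVA+PM10 library stood at 0.704 of control (0.653 to 0.758) and at 2.52 times the PM10 library (2.24 to 2.85). Sphk2, a sphingosine kinase gene that overlaps 539 of the 2993 exon bases of Dbp on the opposite strand, ran the other way, with 16.5 FPKM in OVA+PM10 lung, 32.2 FPKM in PM10 lung and 17.1 FPKM in control lung.

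Tef and Hlf, the other PAR bZIP factors, had the same order of libraries. Tef had 26.4 FPKM in OVA+PM10 lung, 19.5 FPKM in PM10 lung and 44.2 FPKM in control lung, or 0.596 (OVA+PM10) and 0.440 (PM10) of control. Hlf was the least abundant of the 3, with 2.73 FPKM in OVA+PM10 lung, 1.75 FPKM in PM10 lung and 6.21 FPKM in control lung. Its quotients to control were 0.441 in OVA+PM10 (0.378 to 0.512) and 0.283 in PM10 (0.232 to 0.342). About 128 reads carry the Hlf value of the PM10 library, against about 365 for Dbp and 1109 for Tef.

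The period genes, whose proteins close the main loop, were also highest in the control library, and Per1 differed from the rest in the order of the exposed libraries. Per1 had 6.34 FPKM in OVA+PM10 lung, 7.45 FPKM in PM10 lung and 16.8 FPKM in control lung. It was the one member of the 8 driven by E-box or D-box with a lower value in the OVA+PM10 library than in the PM10 library, with a quotient of 0.850 (0.743 to 0.971). Per2 had 4.82 FPKM in OVA+PM10 lung, 3.22 FPKM in PM10 lung and 6.57 FPKM in control lung. Per3, the least abundant of the period genes, had 2.62 FPKM in OVA+PM10 lung, 2.16 FPKM in PM10 lung and 3.77 FPKM in control lung. The quotients to control were 0.735 (OVA+PM10) and 0.491 (PM10) for Per2, and 0.695 (OVA+PM10) and 0.573 (PM10) for Per3.

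The activators of the loop did not share the control-high pattern as a pair. Arntl, which encodes BMAL1 (chr7:113207465-113314126, plus strand), had 1.71 FPKM in OVA+PM10 lung, 2.63 FPKM in PM10 lung and 2.30 FPKM in control lung. It was the one member whose highest value was in the PM10 library, but the quotient of PM10 over control, 1.14, had counting bounds of 0.910 to 1.44 that include 1. The OVA+PM10 library was lower than both others, at 0.743 of control (0.579 to 0.954) and 0.650 of PM10 (0.498 to 0.847). About 102, 136 and 183 reads carry these Arntl values in the OVA+PM10, PM10 and control libraries. Clock, the partner of BMAL1, had 4.31 FPKM in OVA+PM10 lung, 5.68 FPKM in PM10 lung and 8.49 FPKM in control lung, so that it was highest in control like the genes it drives.

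**Figure D1:**
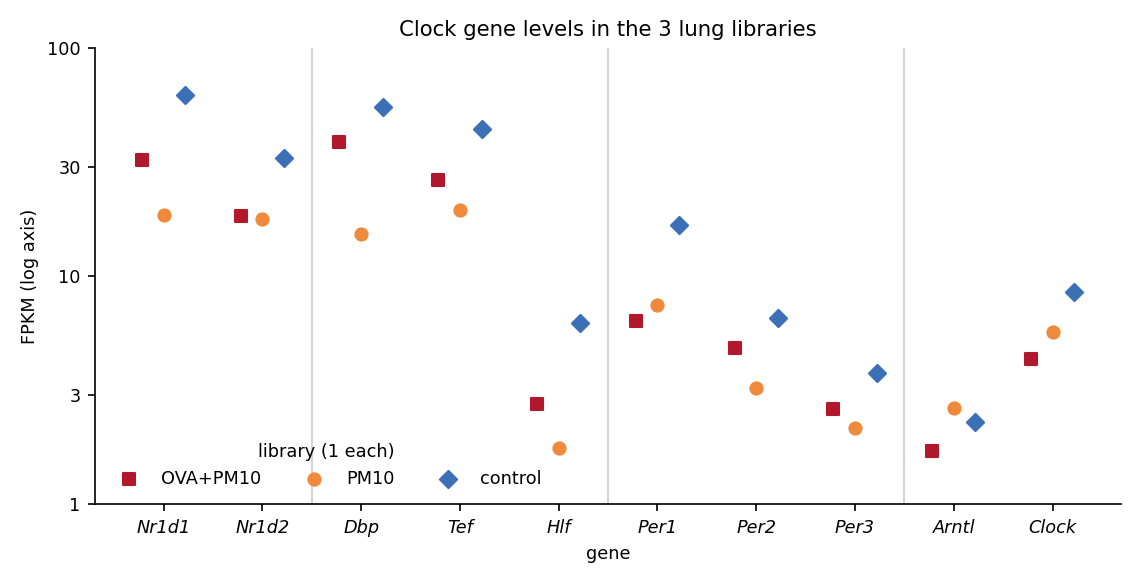
FPKM (log axis) of the 10 clock genes, 1 point per library, grouped by grey lines into REV-ERB receptors, PAR bZIP factors, period genes and activators. The control library is highest for 9 genes, and Arntl is the exception, with 1.71 FPKM in OVA+PM10 lung, 2.63 FPKM in PM10 lung and 2.30 FPKM in control lung.

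Set against each other per length, Dbp led in the OVA+PM10 library with 38.8 FPKM, Tef in the PM10 library with 19.5 FPKM and Nr1d1 in the control library with 62.3 FPKM. Nr1d1, Nr1d2, Dbp and Tef held the first 4 places in all 3 libraries, and Per1 the place after them. In the PM10 library these 4 were close together, between 15.3 and 19.5 FPKM, whereas in the control library they ranged over 32.9 to 62.3 FPKM. Arntl was the lowest member in the OVA+PM10 and control libraries, and Hlf in the PM10 library.

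Comparisons across all genes used the log2 ratio of FPKM + 1, which understates changes of low genes, and a gene was counted when it was at least 2-fold higher or lower and its higher value was 1 FPKM or more. In PM10 against control, 5 of the 10 members were at least 2-fold lower (Dbp, Nr1d1, Hlf, Tef and Per1, at -1.78, -1.70, -1.39, -1.14 and -1.07) and 0 were at least 2-fold higher. The shares among all 13693 genes compared were 13.9% lower and 13.6% higher. The median log2 ratio was -0.96 for the members and 0.02 for all genes. Among all genes 4.92% had a lower ratio than Dbp, and 5.38% a lower one than Nr1d1, while 55.2% lay below Arntl at 0.14.

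In OVA+PM10 against control, 1 of the 10 members, Per1 at -1.28, was at least 2-fold lower and 0 were at least 2-fold higher, against 8.68% lower and 9.95% higher of all 13877 genes. All 10 had log2 ratios below 0, from -1.28 (Per1) to -0.28 (Arntl), with a median of -0.77 against -0.0017 for all genes. This comparison and the one before share the control library, so their values are not independent. Side by side, the log2 ratios to control in the OVA+PM10 and PM10 libraries were -0.50 and -1.78 for Dbp, -0.93 and -1.70 for Nr1d1, -1.28 and -1.07 for Per1, and -0.84 and -0.51 for Clock.

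In OVA+PM10 against PM10, the comparison without the control library, 1 of the 10 members was at least 2-fold higher (Dbp at 1.28) and 0 were at least 2-fold lower. The shares among all 13556 genes were 11.8% higher and 9.00% lower. The members' median was 0.31, against -0.03 for all genes. After Dbp came Nr1d1 at 0.77 and Per2 at 0.46, both within 2-fold, while Arntl at -0.42, Clock at -0.33 and Per1 at -0.20 were the 3 members below 0.

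**Figure D2:**
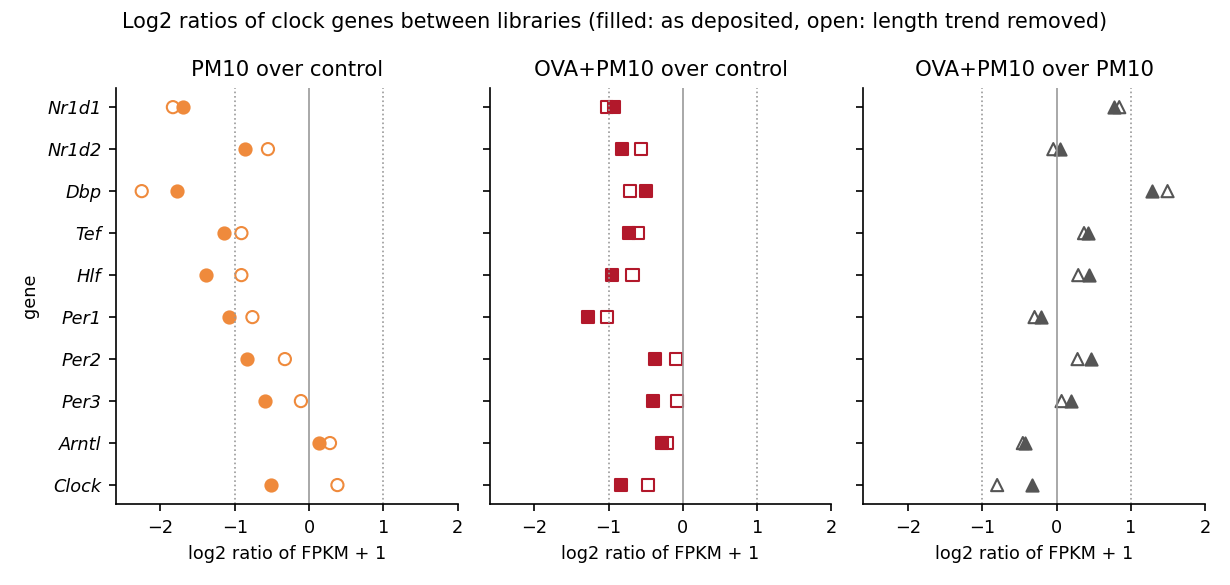
Log2 ratio of FPKM + 1 (horizontal) for the 10 clock genes (vertical) in 3 comparisons, filled as deposited and open with the trend over transcript length removed, with dotted lines at 2-fold. In PM10 over control 5 filled points lie beyond the line at -1, in OVA+PM10 over control 1 does, and in OVA+PM10 over PM10 Dbp lies beyond the line at 1.

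The summed FPKM differed between the libraries (855739 in OVA+PM10, 1293180 in PM10 and 546315 in control), so a ratio depends on the scaling. After scaling to the same sum, the median of all genes moved to -1.03 in PM10 against control, -0.58 in OVA+PM10 against control and 0.49 in OVA+PM10 against PM10. The shares of genes at least 2-fold lower and higher then became 51.8% and 1.84% in the first comparison, 24.5% and 4.49% in the second, and 2.51% and 24.7% in the third. That scaling lowered the log2 ratio to control of each member, so the 8 genes driven by E-box or D-box could only stay below control. Their medians became -2.29 (PM10) and -1.41 (OVA+PM10). Arntl in PM10 against control changed sign with the scaling, from 0.14 to -0.78, which is still above the median of all genes.

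A quotient of genes within a library does not depend on scaling, and Arntl served as the denominator because its phase is opposite. In the PM10 library each of the other 9 members was lowest relative to Arntl, as deposited. All 9 quotients there share 1 Arntl value of about 136 reads, whose difference from control lay within counting error. Length is not removed by such a quotient. With the length trend removed, Clock had the higher log2 ratio of the pair in PM10 against control (0.38, against 0.28 for Arntl) and the lower one in OVA+PM10 against PM10 (-0.80, against -0.46 for Arntl), so that for Clock the PM10 library was then the highest relative to Arntl. The FPKM of Dbp was 22.7 times that of Arntl in OVA+PM10 lung, 5.85 times in PM10 lung and 24.0 times in control lung. For Nr1d1 the quotients were 18.9 in OVA+PM10 lung, 7.03 in PM10 lung and 27.1 in control lung. The OVA+PM10 library was near control for Per2 (2.82 in OVA+PM10 and 2.86 in control) and Per3 (1.53 in OVA+PM10 and 1.64 in control). It was lower than control for Per1 (3.71 in OVA+PM10 and 7.30 in control) and Clock (2.53 in OVA+PM10 and 3.70 in control). Hlf and Per3 lay below Arntl in the PM10 library alone, at 0.668 and 0.822.

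**Figure D3:**
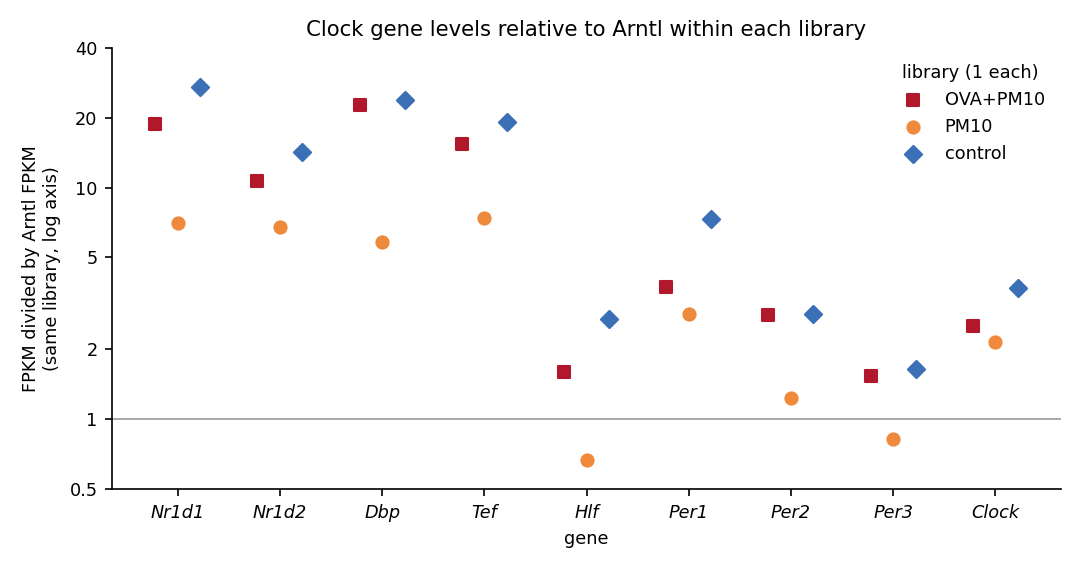
FPKM of 9 clock genes divided by the FPKM of Arntl in the same library (log axis), 1 point per library, with a line at 1. The PM10 library is lowest for every gene as deposited (for Clock not with the length trend removed), for example 5.85 for Dbp against 22.7 in the OVA+PM10 library and 24.0 in the control library.

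To set the groups against each other as 1 value, the mean log2 ratio of Arntl and Clock was subtracted from the median log2 ratio of the 8 E-box and D-box genes. This difference can be far from 0 when both groups move the same way, so it cannot show opposite shifts without the signs given below. The difference was -0.92 in PM10 against control, -0.21 in OVA+PM10 against control and 0.80 in OVA+PM10 against PM10. In PM10 against control, the 8 genes were lower and Arntl was within its counting error of control, while Clock was lower too (-0.51). With the length trend removed, signs were opposite in that comparison, with Arntl at 0.28, Clock at 0.38 and the 8 genes below 0. The 8 genes, Arntl and Clock were all lower in OVA+PM10 against control. As deposited, signs were opposite in OVA+PM10 against PM10, where 7 of the 8 were above 0 and Arntl and Clock were below it. With the length trend removed 6 of the 8 were above 0. All 8 were after scaling to the same sum, which raised the ratio of each member there. Among the 7 above 0 as deposited, Nr1d2 at 1.03 (0.951 to 1.12) and Per3 at 1.21 (0.986 to 1.48) had quotients with counting bounds that include 1. Clock turned to 0.16 there after scaling to the same sum, and Arntl lay at -0.02. In no comparison did a member of the activator pair pass 2-fold as deposited. Sampling time and group cannot be told apart in these 3 libraries.

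Log2 ratios followed transcript length across all genes, and the members differ in length, from 1837 bases for the longest transcript of Dbp to 9744 bases for that of Clock. In PM10 against control the running median over genes of the same length was 0.47 at the length of Dbp, 0.13 at that of Nr1d1, -0.14 at that of Arntl and -0.89 at that of Clock. With this trend removed, Dbp stood at -2.25 and Nr1d1 at -1.83, both still at least 2-fold lower, while Tef (-0.91), Hlf (-0.91) and Per1 (-0.76) came within 2-fold. Per2 (-0.33) and Per3 (-0.11) lay close to genes of their length. Clock turned from -0.51 to 0.38, so that it and Arntl (0.28) were then above 0 and all 8 others below. In OVA+PM10 against control, 2 members were at least 2-fold lower with the trend removed, Nr1d1 at -1.02 and Per1 at -1.02, and all 10 were below 0.

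**Figure D4:**
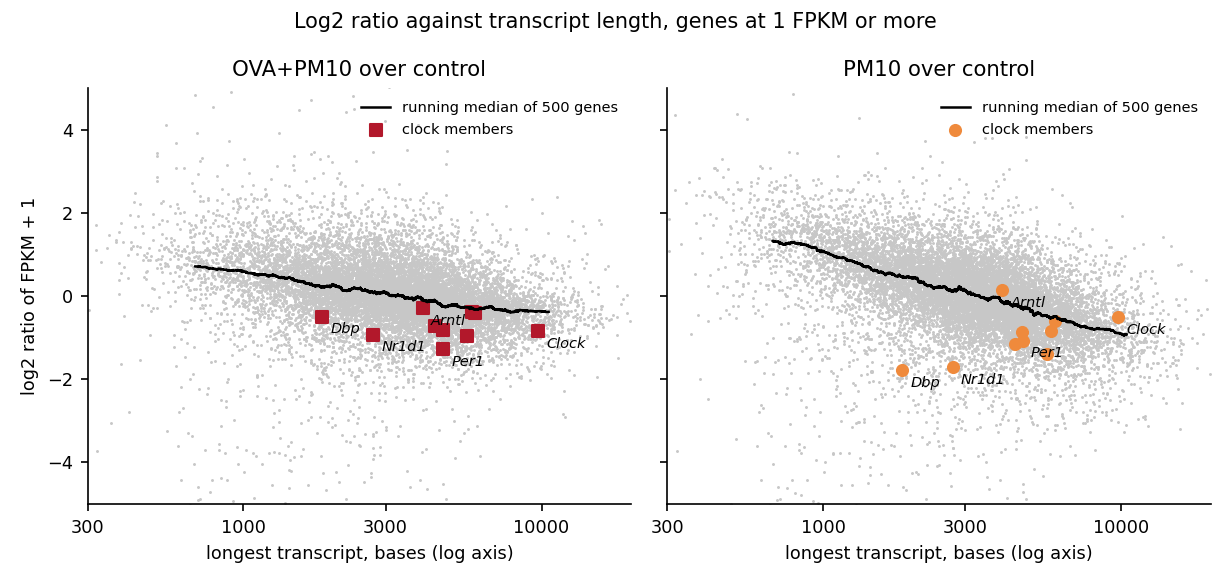
Log2 ratio of FPKM + 1 against the longest transcript in bases (log axis) for genes at 1 FPKM or more (grey), with the running median of 500 genes (line) and the 10 clock genes (coloured). The line falls with length in both panels, Dbp and Nr1d1 lie well below it in PM10 over control, and 103 (OVA+PM10) and 111 (PM10) genes lie outside the axes.

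Of 21 other genes of the core clock and its accessory loops, 17 had at least 1 FPKM in a library of each comparison, and few passed 2-fold. In PM10 against control 1 was at least 2-fold higher and 1 lower (13.6% and 13.9% of all genes), with a median of -0.28. The counts were again 1 and 1 in OVA+PM10 against control (9.95% and 8.68% of all genes), with a median of -0.16. Rora, a receptor that activates Arntl through ROR elements, was the lower one in both, with 4.23 FPKM in OVA+PM10 lung, 3.85 FPKM in PM10 lung and 9.73 FPKM in control lung. Its longest transcript has 10878 bases, and with the length trend removed its ratios were -0.64 (OVA+PM10) and -0.19 (PM10).

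Repressors that share E-box control with the period genes went different ways. Cry2, which closes the main loop with the PER proteins, had 9.25 FPKM in OVA+PM10 lung, 7.14 FPKM in PM10 lung and 12.8 FPKM in control lung. Ciart, another E-box gene and repressor of BMAL1 and CLOCK, had 1.84 FPKM in OVA+PM10 lung, 1.60 FPKM in PM10 lung and 2.77 FPKM in control lung, the same order. Bhlhe41, a repressor that competes for E-boxes, was the gene at least 2-fold higher in PM10 against control, with 3.07 FPKM in OVA+PM10 lung, 9.14 FPKM in PM10 lung and 3.20 FPKM in control lung. Its paralog Bhlhe40 stayed within 2-fold, at 29.5 FPKM in OVA+PM10 lung, 20.4 FPKM in PM10 lung and 22.1 FPKM in control lung.

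Of 5 other genes listed as in phase with Arntl (Cry1, Nfil3, Rora, Npas2 and Arntl2), 3 had at least 1 FPKM, and they differed in direction. In PM10 against control 0 of the 3 passed 2-fold upward and 1 (Rora) downward (13.6% and 13.9% of all genes), with a median of 0.12. In OVA+PM10 against control 1 (Nfil3) was higher and 1 (Rora) lower (9.95% and 8.68% of all genes), with a median of -0.07. Cry1, whose RNA peaks late in the cycle, had 3.70 FPKM in OVA+PM10 lung, 4.35 FPKM in PM10 lung and 3.93 FPKM in control lung, within 2-fold in every comparison. Nfil3, the bZIP repressor that competes with the PAR factors for D-boxes and whose match to the ROR element is printed above, had 7.41 FPKM in OVA+PM10 lung, 4.72 FPKM in PM10 lung and 2.06 FPKM in control lung. It was the gene at least 2-fold higher in OVA+PM10 against control, at 1.46, and stood at 0.91 in PM10 against control. Nfil3 is also known as a cytokine-responsive gene of lymphocytes and macrophages. Npas2, the paralog of Clock, was below 1 FPKM in all 3 libraries, at 0.575 FPKM in OVA+PM10, 0.427 FPKM in PM10 and 0.162 FPKM in control. Arntl2, the paralog of Arntl, was below 1 FPKM too, at 0.251 FPKM in OVA+PM10, 0.232 FPKM in PM10 and 0.505 FPKM in control.

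**Figure D5:**
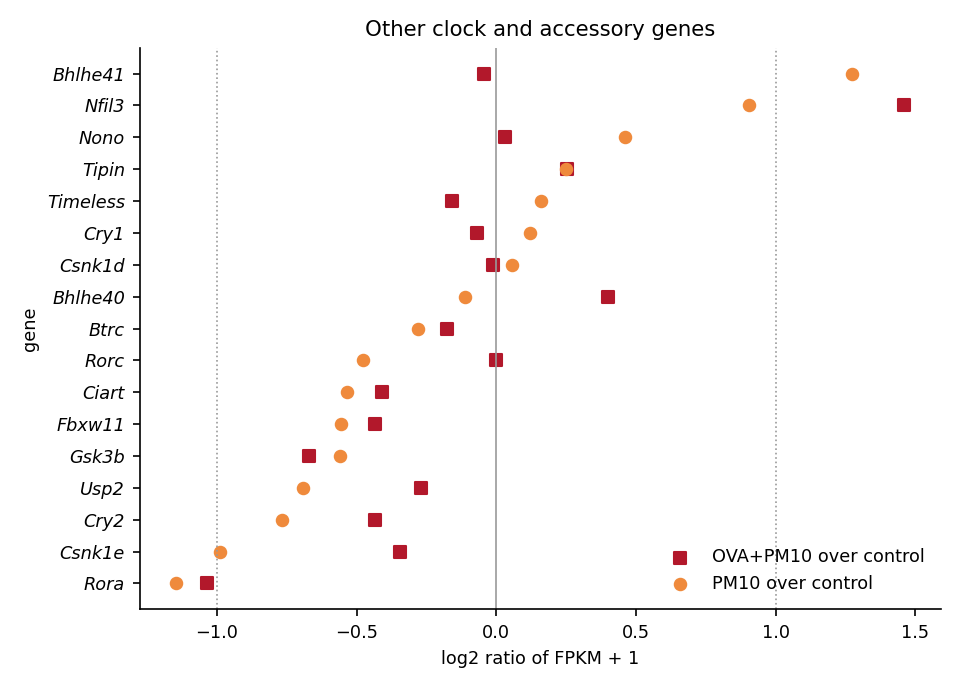
Log2 ratio of FPKM + 1 against control for the 17 other clock and accessory genes at 1 FPKM or more, in the OVA+PM10 library (squares) and the PM10 library (circles), with dotted lines at 2-fold. Bhlhe41 lies beyond the upper line in the PM10 library alone, Nfil3 in the OVA+PM10 library alone, and Rora beyond the lower line in both.

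Kinases of the PER proteins help to set the pace of the loop. Csnk1d, one of them, had 30.1 FPKM in OVA+PM10 lung, 31.6 FPKM in PM10 lung and 30.3 FPKM in control lung. Csnk1e, its paralog, had 14.1 FPKM in OVA+PM10 lung, 8.64 FPKM in PM10 lung and 18.1 FPKM in control lung. Both stayed within 2-fold on the log2 scale of FPKM + 1 in all 3 comparisons as deposited, although Csnk1e lay near that line in PM10 against control, at -0.99. Its plain FPKM quotient there was 0.476, and its log2 ratio with the length trend removed was -1.03, both past 2-fold.

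Genes that follow the clock in many tissues did not move as 1 group. Of 22 such genes at 1 FPKM or more, 3 were at least 2-fold lower and 0 higher in PM10 against control, with a median of -0.08. The OVA+PM10 library against control had 1 higher and 6 lower, with a median of -0.26. The shares among all genes were 13.9% lower and 13.6% higher in the first comparison, and 8.68% lower and 9.95% higher in the second. The largest ratios were those of Klf9, a transcription factor induced by glucocorticoids (-1.38 in OVA+PM10 and -3.25 in PM10 against control), Pdk4, a kinase that restrains pyruvate oxidation (-2.50 in OVA+PM10 and -1.74 in PM10), and Fmo2, the flavin monooxygenase of lung (-1.67 in OVA+PM10 and -2.28 in PM10). Wee1, a cell cycle kinase under clock control in mouse liver, had 9.63 FPKM in OVA+PM10 lung, 3.81 FPKM in PM10 lung and 7.40 FPKM in control lung.

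Per1 is also induced by glucocorticoids and by signals that induce immediate early genes, and these groups gave the following values. Of 18 glucocorticoid-responsive genes at 1 FPKM or more, Per1 among them, 4 were at least 2-fold lower and 2 higher in PM10 against control (median -0.13), and 7 were lower and 1 higher in OVA+PM10 against control (median -0.70). Klf9, Pdk4, Tsc22d3, Fkbp5 and Cdkn1a are also in the list of genes that follow the clock, so the counts of these lists are not independent. Of 17 immediate early genes, 3 were higher and 2 lower in PM10 against control (median -0.35). Of 18 in OVA+PM10 against control, 0 were higher and 1 was lower (median -0.19). Beside these counts, 13.9% of all genes were lower and 13.6% higher in PM10 against control. The shares in OVA+PM10 against control were 8.68% and 9.95%.

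Markers of other tissues and of lung cell types differed between libraries as well, and are given for whole lists. Their sums are as deposited and depend on the scaling, because the summed FPKM of the libraries differed. All 16 skeletal muscle markers were at least 2-fold lower in both exposed libraries, with summed levels of 47.6 FPKM in OVA+PM10 lung, 31.0 FPKM in PM10 lung and 5677 FPKM in control lung. Acta1, the skeletal muscle actin gene, had a listed value of 0 in PM10 lung, as had Myh1 and Myh2 in OVA+PM10 lung, and Myh4 and Tnnc2 in both exposed libraries. Adipose tissue markers summed to 263 FPKM in OVA+PM10 lung, 185 FPKM in PM10 lung and 581 FPKM in control lung. Of the 14 compared, 8 were at least 2-fold lower in the OVA+PM10 library and 11 in the PM10 library. The squamous epithelium markers summed to 47.8 FPKM in OVA+PM10 lung, 43.4 FPKM in PM10 lung and 6309 FPKM in control lung. Cardiac muscle markers summed to 417 FPKM in OVA+PM10 lung, 229 FPKM in PM10 lung and 994 FPKM in control lung, and 6 (OVA+PM10) and 9 (PM10) of the 14 compared were at least 2-fold lower than control. Of all genes, 8.68% were at least 2-fold lower than control in the OVA+PM10 library and 13.9% in the PM10 library. Muscle and adipose tissue have clocks too, and the part of these tissues in the ratios to control was not tested.

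Macrophage markers, by contrast, summed to 3813 FPKM in OVA+PM10 lung, 2097 FPKM in PM10 lung and 729.5 FPKM in control lung. Of these 17, 10 lay 2-fold or more above control and 2 below it in the OVA+PM10 library, and 7 lay above and 0 below in the PM10 library. Club cell markers summed to 71560 FPKM in OVA+PM10 lung, 56640 FPKM in PM10 lung and 47080 FPKM in control lung. In OVA+PM10 against PM10, 4 of the 9 compared passed 2-fold upward and 1 downward (median 0.71). Of 11 alveolar type 2 markers, 1 was higher and 1 lower in OVA+PM10 against control, and 3 were higher and 1 lower in PM10 against control. Among all genes, 9.95% were higher and 8.68% lower in OVA+PM10 against control, and 13.6% and 13.9% in PM10 against control. The shares in OVA+PM10 against PM10 were 11.8% higher and 9.00% lower. The part of macrophages, club cells and alveolar type 2 cells in the clock gene ratios was not tested.

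Between the exposed libraries, which both had low skeletal muscle and squamous sums, the Dbp quotient was 2.52. Stromal and adipose markers moved with it. Of the 13 adipose markers compared, 7 passed 2-fold upward in OVA+PM10 against PM10 and 1, Lpl at -2.04, downward (median 1.07). Cfd (adipsin) had 56.5 FPKM in OVA+PM10 lung, 0.189 FPKM in PM10 lung and 104 FPKM in control lung, and Car3, a carbonic anhydrase abundant in fat and muscle, had 31.3 FPKM in OVA+PM10 lung, 0.206 FPKM in PM10 lung and 168 FPKM in control lung. Smooth muscle and pericyte markers summed to 888 FPKM in OVA+PM10 lung, 383 FPKM in PM10 lung and 717 FPKM in control lung, the order of Dbp for the exposed pair. Of these 15 markers, 8 were at least 2-fold higher in OVA+PM10 against PM10 while 1 was lower (median 1.30). Fibroblast markers gave the same counts of 8 and 1 of 15 (median 1.37) and summed to 1302, 1069 and 1751 FPKM in the OVA+PM10, PM10 and control libraries. Endothelial markers ran the other way, with 8 of 15 at least 2-fold lower in OVA+PM10 against PM10. The part of adipose, stromal and endothelial cells in the clock gene ratios was not tested.

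For likeness of pattern, the log2 ratios to control of the OVA+PM10 and PM10 libraries were compared over 10036 genes at 5 FPKM or more in any library. Symbols made of Gm and digits, and those ending in Rik, were left out of these. With 3 libraries many genes lie close to any pattern, so the likeness is a description. The 5 genes nearest to Dbp were Tnks1bp1, Lysmd3, Dyrk2, Tcaf2 and Fitm2, at Euclidean distances of 0.03 to 0.06 on the log2 scale. Tnks1bp1, for example, had 20.2 FPKM in OVA+PM10 lung, 7.94 FPKM in PM10 lung and 29.1 FPKM in control lung. The 5 nearest to Arntl were Rcn1, Picalm, Apbb1, Syap1 and Ranbp9. None of the other members was among either 5. Arntl and Per3 were below 5 FPKM in all 3 libraries, so the search could not have returned them.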

How the data were processed

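RNA sequencing values of 3 lung libraries were analysed, 1 per group, assigned by the agent named in their labels. The deposited values were FPKM per gene symbol, a unit read from the values because no header states it. TopHat and the build mm10 appear in the submitters' processing notes. How reads were counted, on which annotation, with or without strand, and what became of multiply mapped reads is not given here. Per the labels' protocols, libraries were stranded.

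The members and gene lists were chosen with earlier results of these data known. One gene of the list of other clock genes is not reported here and was left out of its counts. Log2 ratios of FPKM + 1 between libraries were computed with Python 3.11.15 and pandas 2.3.3. Genes were compared if the higher library had 1 FPKM or more, at a threshold of 2-fold, and no test was possible with 1 library per group. Transcript length (the longest transcript) and gene coordinates were taken from GENCODE M21 (GRCm38, the same assembly as mm10), in which 22148 symbols (95.5%) were found. The trend over length was a running median of 500 genes. The value of 1 read was estimated from low values of genes with a single transcript (0.067, 0.0773 and 0.0501 FPKM in 1 kilobase for the OVA+PM10, PM10 and control libraries), and reads were rebuilt from it for approximate 95% counting bounds (exact binomial), which depend on gene lengths the sources do not give. The ratios and the trend removal were tested on simulated data.

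Genes named were the 10 members, other clock genes at 1 FPKM or more, up to 3 genes per further list with the largest ratios, and the 5 nearest in pattern to Dbp and to Arntl. Npas2, Arntl2, Wee1, Thra, Sphk2, the other tissue markers named and the genes in the closing observations are outside this rule, chosen once their values had been seen. Alternatives were pseudocounts of 0.25 and 5 FPKM, no filter or 5 FPKM, cutoffs at 1.5-fold and 4-fold, median-ratio scaling or scaling to a sum of 1000000, removal of the length trend, and leaving out 77 genes of other tissues, hemoglobin and immunoglobulin with rescaling. Omitting the pseudocount was added after seeing the data.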

Additional observations from a re-analysis of the deposited data

How the results depend on the processing

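The 5 members at least 2-fold lower in PM10 against control (13.9% of all genes) became 3 with a pseudocount of 5 FPKM (5.47%), 6 with none (17.9%), 8 at 1.5-fold (25.5%), 0 at 4-fold (3.83%), 2 with the length trend removed (11.3%), and 9 both after scaling to a sum of 1000000 (51.8%) and after leaving out genes of other tissues (52.0%). The 1 member lower in OVA+PM10 against control (8.68%) became 2 with a pseudocount of 0.25 FPKM (1520 of 13877 genes), with none (1507 of 13702 genes), and with the length trend removed (8.36%), 0 with 5 FPKM (3.78%) and at 4-fold (1.99%), 6 at 1.5-fold (17.7%), 7 when every library summed to 1000000 (24.5%), 8 with other tissues left out as well (25.7%). The 1 member higher in OVA+PM10 against PM10 (11.8%) became 2 at 1.5-fold (22.7%) and under either scaling to a fixed sum (24.7% and 24.1%), and 0 at 4-fold (2.14%). Percentages are the shares of all genes in the same direction. Both scalings to a fixed sum shift all genes, which accounts for the larger counts under them. Neither a filter at 5 FPKM, nor no filter, nor scaling by the median ratio changed these counts. No member counted as at least 2-fold changed sign under any of these alternatives, but most of them could not change one. Pseudocounts, filters and cutoffs leave the sign of a ratio as it is. The scalings to a fixed sum moved these members further in the direction they already had. Only median-ratio scaling and removal of the length trend could have changed a sign. The difference between the 8 E-box and D-box genes and the Arntl and Clock pair kept its sign with other pseudocounts, with none and with the length trend removed. It ran from -1.17 to -0.64 in PM10 against control, -0.29 to -0.09 in OVA+PM10 against control and 0.42 to 1.02 in OVA+PM10 against PM10. Scaling of the libraries can change this difference only through the pseudocount, and filters and cutoffs do not enter it, so those alternatives do not probe it. No paired analysis was possible because each group has 1 library, and for the same reason none could be left out. Depth limits Arntl and Hlf most, with about 102 reads for Arntl in the OVA+PM10 library and 128 for Hlf in the PM10 library.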

Other observations

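Among the 18 glucocorticoid-responsive genes compared, Klf9, Zbtb16, Pdk4 and Per1 lay 2-fold or more below control in both exposed libraries. The list did not move as 1 group. Lcn2 went the other way in both, with log2 ratios to control of 2.67 (OVA+PM10) and 2.92 (PM10). Nfkbia was also above control, at 0.69 (OVA+PM10) and 2.45 (PM10), and these 2 genes alone passed 2-fold upward. Klf9 had 20.8 FPKM in OVA+PM10 lung, 4.96 FPKM in PM10 lung and 55.7 FPKM in control lung, the order of Dbp. Zbtb16, a glucocorticoid-induced zinc finger factor, had 2.56 FPKM in OVA+PM10 lung, 1.62 FPKM in PM10 lung and 13.1 FPKM in control lung. Tsc22d3 (GILZ), a glucocorticoid-induced leucine zipper gene, had another order, with 46.1 FPKM in OVA+PM10 lung, 98.7 FPKM in PM10 lung and 120 FPKM in control lung. Por, the electron donor of cytochrome P450 enzymes and a rhythmic gene in liver, had 213 FPKM in OVA+PM10 lung, its highest value, against 66.1 FPKM in PM10 lung and 97.6 FPKM in control lung.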
